A study of Mus musculus with 10 samples.

Results

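The collagen genes of the mouse hippocampus were described as 1 family across the nucleus classes of a single-nucleus RNA-seq data set. A gene was a member if its symbol consisted of Col, a number, the letter a and a second number. This rule gave 44 of the 24837 genes in the matrix. It reads symbols alone, although earlier results of these data were known when the family was chosen. The nuclei were isolated from frozen hippocampi of unstimulated mice of strain C57B/6J with the genotype WT (wild type), and all 10 samples of the labels form 1 group with an age of 4 to 7 months. The titles of 4 samples name them as RNASET2 controls, although their listed genotype is the same wild type. The groups compared below are therefore classes of nuclei within wild-type tissue, and there is no treated or mutant arm. No label ties the 7 barcode suffixes (barcode sets) of the matrix to the samples. All nuclei were therefore handled as 1 sample without replicates. Differences between classes carry no p-value, and the intervals in brackets are 95% intervals that cover counting error only.

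Collagens are extracellular matrix proteins whose chains wind around each other in groups to form a triple helix. Every turn of that helix needs a glycine, the smallest amino acid, at the third position of each triplet of the chain. Fibril-forming collagens build the fibres of connective tissue, fibril-associated collagens sit on those fibres or bridge them, network collagens such as type IV build the basement membrane around blood vessels, and transmembrane collagens stay anchored in the plasma membrane and can be shed. In the brain, fibrous collagen is scarce outside the meninges and vessel walls, while some non-fibrillar collagens are made by neurons and act at synapses.

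The repeat that defines the family is visible in the coding sequence of the members that carry the results below. The stretches are the first 9 triplets of the longest uninterrupted glycine repeat in the longest GENCODE M21 coding transcript of each gene (GRCm38), given 5′ to 3′ along the coding strand. Capitals mark the first codon of each triplet, a glycine codon that begins with GG. A further glycine codon inside a triplet stays in lower case. Col25a1, the most abundant member in UMIs, is shown from chr3:130476369-130476449 (exon 9, + strand), and Col23a1, a transmembrane member with its highest level in an excitatory cluster, from exons 2 to 5 on chromosome 11. Col19a1 (exons 39 to 41, chromosome 1) and Col26a1 (exons 5 to 6, chromosome 5) had their highest levels among classes of at least 50 nuclei in interneurons. Col11a1 (exons 14 to 15, chromosome 3) and Col27a1 (exons 6 to 8, chromosome 4) are fibril-forming members. Among classes of at least 50 nuclei, Col11a1 was highest in Cajal-Retzius cells and Col27a1 in microglia. Col4a2 (chr8:11429447-11429527, exon 29, + strand) stands for the basement membrane chains, and Col9a3 (exons 12 to 13, chromosome 2) for those of oligodendrocytes.
Col25a1: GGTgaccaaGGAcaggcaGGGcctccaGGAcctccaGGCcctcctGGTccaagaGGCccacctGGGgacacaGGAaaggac
Col23a1: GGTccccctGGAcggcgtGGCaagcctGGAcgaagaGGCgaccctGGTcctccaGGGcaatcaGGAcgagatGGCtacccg
Col19a1: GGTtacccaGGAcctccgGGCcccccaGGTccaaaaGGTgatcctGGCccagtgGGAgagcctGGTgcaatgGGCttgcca
Col26a1: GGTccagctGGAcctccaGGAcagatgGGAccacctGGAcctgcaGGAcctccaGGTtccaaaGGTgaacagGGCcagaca
Col11a1: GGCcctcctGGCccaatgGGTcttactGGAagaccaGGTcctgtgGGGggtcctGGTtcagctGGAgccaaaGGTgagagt
Col27a1: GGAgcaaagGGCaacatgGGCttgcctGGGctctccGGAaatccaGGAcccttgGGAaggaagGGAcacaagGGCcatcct
Col4a2: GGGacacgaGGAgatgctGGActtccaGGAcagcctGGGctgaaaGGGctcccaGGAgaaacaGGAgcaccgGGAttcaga
Col9a3: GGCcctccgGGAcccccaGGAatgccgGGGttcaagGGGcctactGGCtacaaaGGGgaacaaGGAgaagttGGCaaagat

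The longest uninterrupted repeat was short in several of the most abundant members. Col1a1 had 338 glycine triplets in a row and Col3a1 had 344, whereas Col25a1 had 40, Col23a1 had 43, Col19a1 had 57 and Col26a1 had 23. Col11a1, with 338 triplets in a row, was the member with a long unbroken repeat among the 5 that gave the most UMIs. Col4a1 (40) and Col4a2 (66) had short runs, but runs of at least 6 triplets covered 79.2% and 74.3% of their codons. In Col12a1, a chain made mostly of other domains, such runs covered 8.19% of 3065 codons.

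Of the 15560 barcodes with at least 500 UMIs (unique molecular identifiers, each standing for 1 captured RNA molecule), 15247 remained after filters and doublet calls. Nuclei were clustered without any collagen gene or collagen-related gene, and clusters were named from fixed marker lists that hold no collagen gene, so that CA1-like, microglia-like and the other classes are marker-defined and are written without the ending here. The naming covered 13155 nuclei in 15 classes, of which the 43 mossy cell nuclei and the 31 vascular nuclei were under the minimum of 50 for a class to be compared on its own. The mossy nuclei do count among the excitatory nuclei, and the vascular nuclei among the non-neuronal ones, in the pooled comparisons. A further 2092 nuclei in 7 clusters stayed unnamed. Levels are given as CPM, the UMIs of a gene per 1000000 UMIs of the class, and are not scaled by gene length or gene span. The 3′ libraries are read from transcript ends, but whether intronic reads were counted is not given in the sources used here. Mean depth was 7592 UMIs in neurons and 1919 in non-neuronal nuclei, and median UMIs per set ran from 1088 to 8194. Several clusters were uneven over the sets. Clusters 8 (dentate granule), 9 (oligodendrocytes), 23 (CA1) and 30 (CA2/CA3) drew 98, 98, 98 and 96% of their nuclei from set 1. Unnamed cluster 5 drew 92% from that set. CA1 cluster 2 drew 38 and 59% from sets 5 and 6, and CA1 cluster 4 drew 38, 29 and 28% from sets 2 to 4. Dentate granule cluster 12 drew 76% from set 6. Slc17a7, which encodes a vesicular glutamate transporter and should be silent in glia, was at 259 CPM in CA1 nuclei and at 26.7 CPM in oligodendrocytes.

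All 44 members had at least 1 UMI, and together they gave 70221 UMIs in the nuclei used, which is 717 CPM. At least 1 member UMI was found in 11269 nuclei (73.9%). Col25a1 alone gave 35.5% of the member UMIs, and the leading 7 members gave 78.9%. Of the 44 members, 33 had at least 200 UMIs, 37 had at least 100, and 7 had fewer than 100. Members whose genes span more of the genome tended to have more UMIs (Spearman rho 0.46 across 44 genes, compared with 0.58 across 19181 genes with a UMI and a span), which describes genes that are not independent of each other. The median span was 114388 bases for members and 21286 bases for genes with a UMI.

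Transmembrane collagens gave 42.8% of the member UMIs, network collagens 21.5%, fibril-associated collagens 16.9%, fibril-forming collagens 10.5%, beaded-filament and anchoring collagens 6.76%, and multiplexins 1.54%. The summed level was lowest in oligodendrocytes at 197 CPM (950 UMIs) and, among classes of at least 50 nuclei, highest in Adarb2 interneurons with Vip or Cnr1 at 3154 CPM (6840 UMIs). Neurogliaform interneurons followed at 1904 CPM and somatostatin or parvalbumin interneurons at 1513 CPM. Between these stood unnamed cluster 14, a group of 397 nuclei with inhibitory markers led by Prdm16, Ano1 and Zic1, at 1881 CPM. The excitatory classes of at least 50 nuclei lay between 440 CPM in subicular or cortical neurons and 599 CPM in CA2/CA3 neurons. Oligodendrocyte precursors (688 CPM), microglia (549 CPM), Cajal-Retzius cells (545 CPM) and astrocytes (453 CPM) overlapped that range or lay just above it. The 31 vascular nuclei reached 4732 CPM from 243 UMIs. The 43 mossy nuclei, which are excitatory, stood at 1246 CPM from 1136 UMIs. Unnamed clusters 31 and 5 had 1022 and 833 CPM, and the remaining unnamed clusters lay between 398 and 579 CPM.

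**Figure D1:**
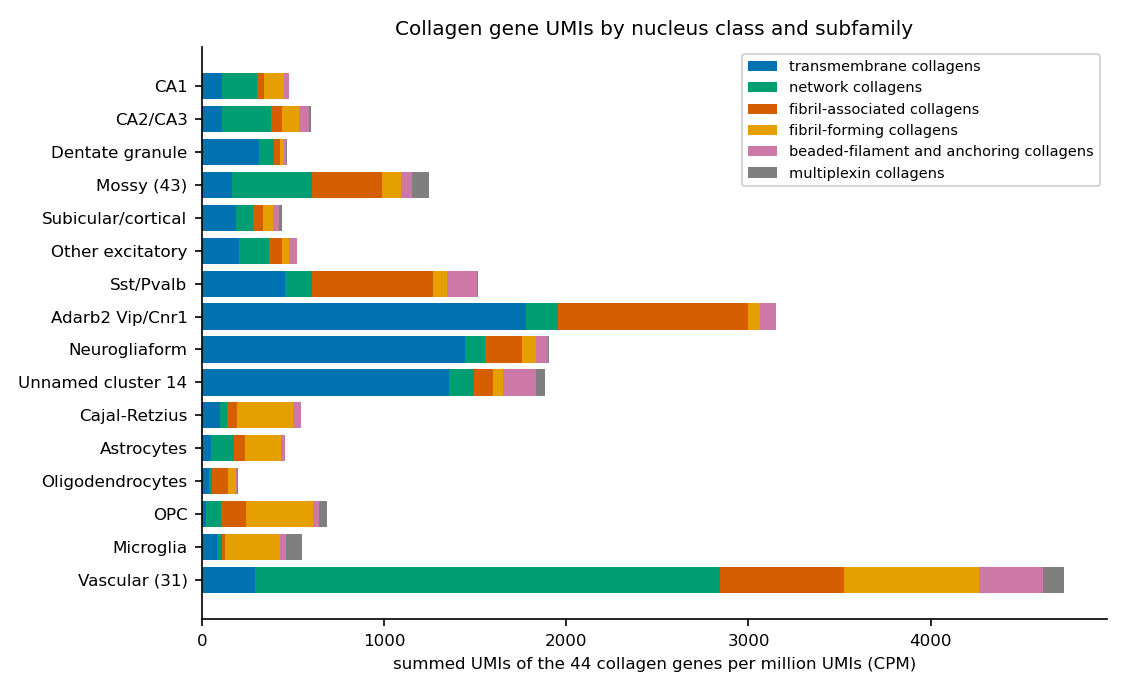
Summed UMIs of the 44 collagen genes per 1000000 UMIs in each nucleus class (horizontal axis), with the length of each colour giving the part of 1 subfamily. The 3 interneuron classes and unnamed cluster 14 reach 1513 to 3154 CPM while the excitatory classes of at least 50 nuclei reach 440 to 599 CPM, and numbers in brackets mark classes of under 50 nuclei.

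The makeup of the collagen UMIs also differed between classes. Transmembrane members made up 75.9% of the collagen UMIs in neurogliaform interneurons and 67.7% in dentate granule neurons, but 3.11% in oligodendrocyte precursors. Network members made up 45.1% in CA2/CA3 neurons and 39.8% in CA1 neurons. Fibril-associated members made up 43.9% in somatostatin or parvalbumin interneurons and 43.4% in oligodendrocytes. Fibril-forming members made up more of the UMIs in Cajal-Retzius cells (56.8%), microglia (55.1%) and oligodendrocyte precursors (53.4%) than in any other class with at least 50 nuclei.

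**Figure D2:**
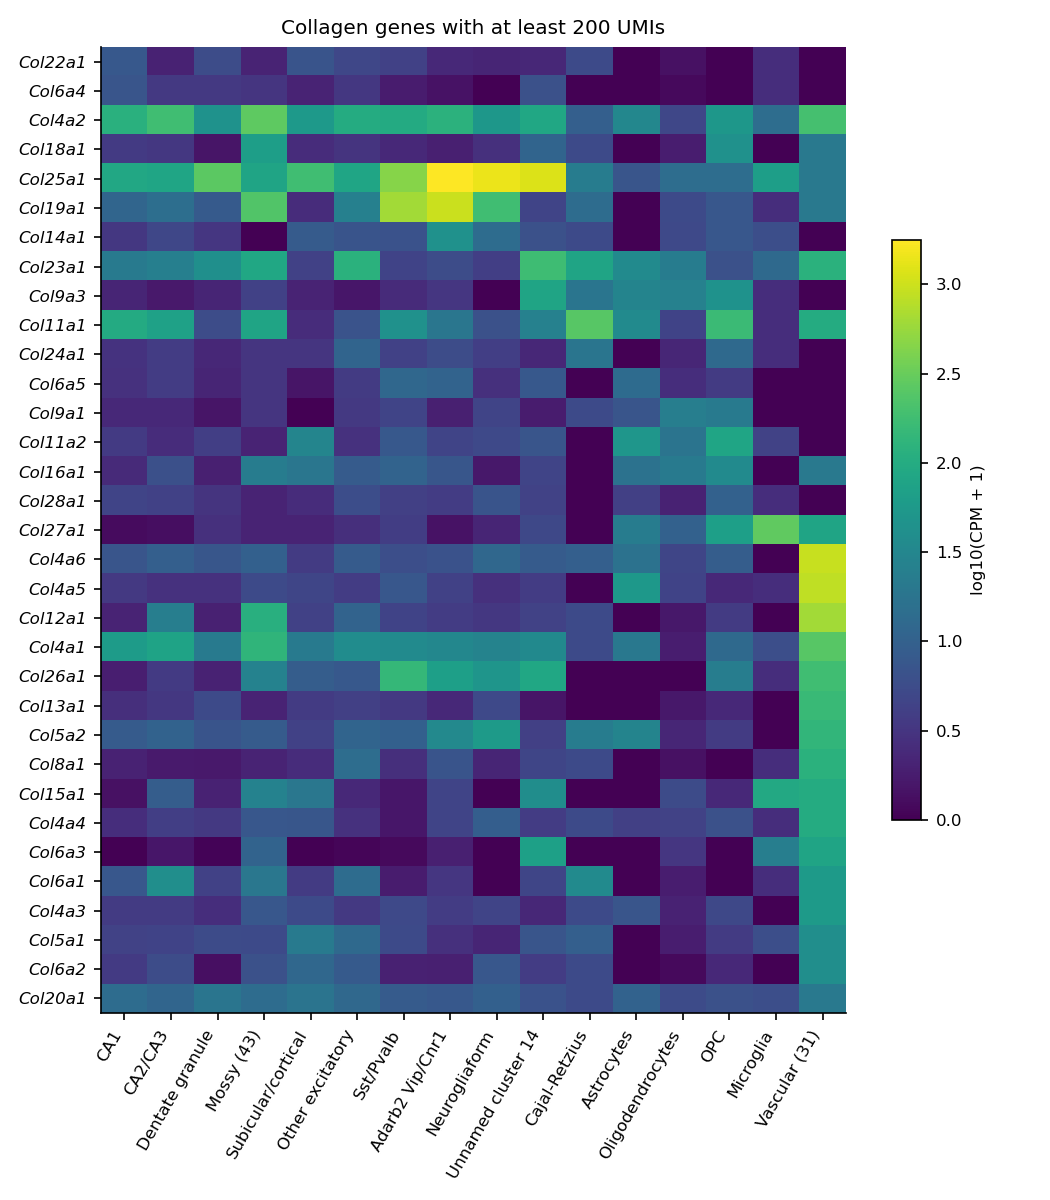
Level of each of the 33 members with at least 200 UMIs (rows) in each class (columns), as log10 of CPM plus 1. Genes are ordered by the class in which they were highest, and the blocks show Col25a1 and Col19a1 bright in interneurons, Col27a1 in microglia and Col4a5, Col4a6 and Col12a1 in the 31 vascular nuclei.

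Col25a1 encodes a neuronal transmembrane collagen known as the precursor of a component of amyloid plaques, and it was the leading member in Adarb2 and neurogliaform interneurons. It stood at 1769 CPM in Adarb2 interneurons (3837 UMIs, 56.5% of 354 nuclei) and at 1436 CPM in neurogliaform interneurons (66.5% of 248 nuclei). Cluster 14 had 1184 CPM, somatostatin or parvalbumin interneurons had 449 CPM, and dentate granule neurons had 269 CPM. In the barcode sets with at least 50 Adarb2 nuclei, Col25a1 was at 1480 CPM in set 2, 2394 CPM in set 3, 1492 CPM in set 5 and 1882 CPM in set 6. In CA1 neurons it lay between 56.8 and 108 CPM over 6 sets, so no set of the Adarb2 class overlapped the CA1 values. The dentate granule value was also separate from CA1 in each set, at 207 to 285 CPM, and the 3 dentate clusters differed little (244 to 275 CPM). Among non-neuronal classes Col25a1 was lowest in astrocytes at 6.24 CPM (2 UMIs) and highest in microglia at 65.9 CPM (39 UMIs).

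Col19a1, a fibril-associated collagen reported to act in the formation of inhibitory synapses, followed a different order among the same interneurons. It was at 980 CPM in Adarb2 interneurons, 628 CPM in somatostatin or parvalbumin interneurons and 177 CPM in neurogliaform interneurons, while cluster 14, which was rich in Col25a1, held 3.58 CPM of Col19a1 (14 UMIs in 397 nuclei). The somatostatin or parvalbumin values of Col19a1 ran from 552 to 704 CPM over 5 sets, and the neurogliaform values were 167 CPM and 137 CPM in 2 sets, so these classes did not overlap. In CA1 neurons Col19a1 was at 5.93 to 24.8 CPM over 6 sets. Outside the interneurons the 43 mossy cell nuclei had 228 CPM of Col19a1, with a UMI in 83.7% of them.

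Both genes were seen in the same nuclei to an extent that differed by class. In Adarb2 interneurons 77.5% of the nuclei with a Col25a1 UMI also had a Col19a1 UMI, compared with 28.6% of those without Col25a1. In somatostatin or parvalbumin interneurons these shares were 74.2% and 63.3%. In neurogliaform interneurons they were 38.8% and 42.2%, close to each other. There 64 of the 165 nuclei with Col25a1, among 248 in all, had both genes, and no counting interval was calculated for these shares. These shares were not adjusted for the depth of single nuclei.

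Col26a1, whose product is a secreted collagen with a short repeat, was the interneuron member that peaked in the somatostatin or parvalbumin class. It reached 147 CPM there (764 UMIs), against 66.4 CPM in Adarb2 and 47.7 CPM in neurogliaform interneurons and 0.889 CPM in CA1 neurons. Over 5 sets the somatostatin or parvalbumin values of Col26a1 ran from 107 to 166 CPM, and the Adarb2 values ran from 42.8 to 90.4 CPM over 4 sets, so the classes did not overlap. Col14a1, a fibril-associated collagen, was highest among classes of at least 50 nuclei in Adarb2 interneurons at 42.9 CPM, with 17.8, 28.5, 70.3 and 80.9 CPM in sets 2, 3, 5 and 6. Col5a2, a chain of the fibre-initiating type V collagen, was highest among these classes in neurogliaform interneurons at 58.4 CPM, followed by Adarb2 interneurons at 32.7 CPM. Col6a5, a chain of the microfibril collagen VI, was at 11.3 CPM in somatostatin or parvalbumin interneurons, at 12.5 CPM from 4 UMIs in astrocytes, and at 9.68 CPM in Adarb2 interneurons.

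**Figure D3:**
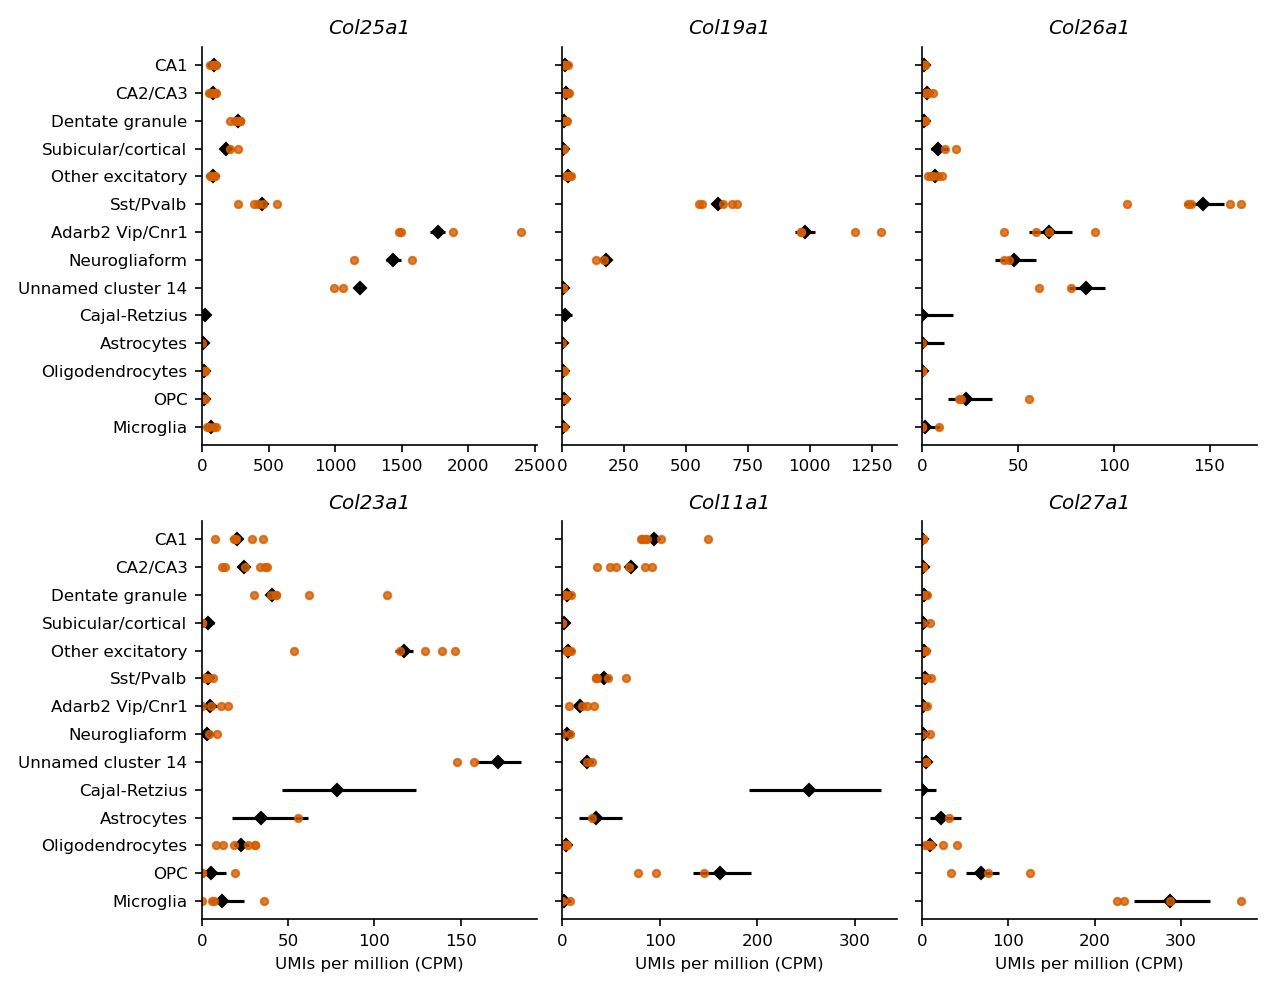
CPM of 6 members by class, with the pooled value as a black diamond with its 95% counting interval and 1 orange point for each barcode set holding at least 50 nuclei of the class. Col25a1 in Adarb2 interneurons ranges from 1480 to 2394 CPM between sets, and Col27a1 in microglia from 226 to 370 CPM.

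Excitatory and inhibitory nuclei were compared next, with 8322 nuclei of all excitatory classes on one side and 1316 nuclei of the 3 named interneuron classes on the other. With a member counted as raised or lowered at 2-fold or more and at least 100 UMIs over both sides, 7 of 31 members were higher in excitatory and 9 were lower. Over all 12968 genes tested by the same rule, 9.59% were higher and 8.19% were lower, while the member shares were 22.6 and 29%. The median log2 ratio of the members was 0.16, beside -0.06 for all genes tested.

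On the inhibitory side, Col19a1 was 37.1-fold (34.7 to 39.6) higher, from 629 CPM against 17.0 CPM. Col26a1 was 32.2-fold higher (27.8 to 37.5) and Col25a1 7.10-fold higher (6.89 to 7.32). Col6a5 (4.49-fold), Col14a1 (4.34-fold), Col5a2 (2.93-fold), Col7a1 (2.64-fold), Col9a1 (2.12-fold) and Col4a5 (2.12-fold) made up the rest, with Col7a1 encoding the anchoring fibril collagen of skin. Each of these 9 had its direction in all 6 barcode sets with at least 50 nuclei on both sides, except Col9a1 with 5 of 6 sets.

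On the excitatory side, Col23a1, a transmembrane collagen, was 14.4-fold higher (10.2 to 20.9), from 52.4 CPM against 3.64 CPM. Col6a1, a core chain of the collagen VI microfibril, was 13.9-fold higher (7.28 to 30.5), and Col6a4, another chain of that type, was 5.96-fold higher (2.51 to 18.5). Col12a1 (2.97-fold) encodes a fibril-associated collagen, and Col15a1 (2.61-fold) and Col18a1 (2.08-fold) encode the multiplexins of basement membrane zones, the second of which is the source of endostatin. The 43 mossy nuclei held 59 of the excitatory Col18a1 UMIs, and without them its ratio was 1.41 (0.777 to 2.80), short of the 2-fold limit. Col5a1 (2.01-fold) lay just past the 2-fold limit and Col6a2 (1.98-fold) just short of it. All 7 had this direction in 6 of 6 sets, except Col6a4 and Col5a1 with 5 of 6. When cluster 14 and the other unnamed clusters were put in the class whose markers they matched best, the direction of Col23a1, Col15a1 and Col18a1 turned, with log2 ratios of -0.02, -1.88 and -0.47. Cluster 14 held 171 CPM of Col23a1, 38.1 CPM of Col15a1 and 10.2 CPM of Col18a1.

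**Figure D4:**
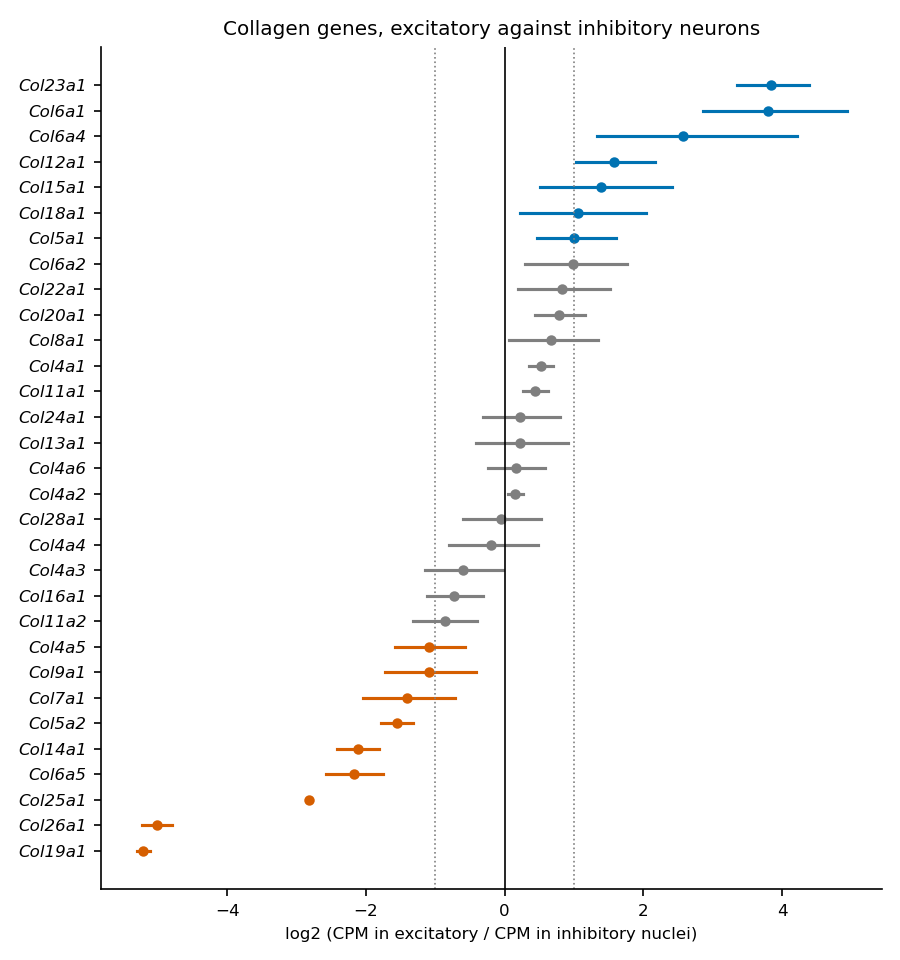
Log2 ratio of CPM in excitatory over CPM in inhibitory nuclei for the 31 members with at least 100 UMIs, with 95% counting intervals as lines. Blue marks the 7 members at least 2-fold higher in excitatory nuclei, orange the 9 at least 2-fold lower, and dotted lines the 2-fold limits.

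Within the excitatory nuclei several members marked single clusters and not the whole class. The class of other excitatory neurons (2132 nuclei in 5 clusters with excitatory markers but no subtype name) held 117 CPM of Col23a1, and the clusters ranged from 14.2 CPM in cluster 13 to 324 CPM (302 to 347) in cluster 17, which was led by Rxfp1 and contained Kitl and Cd44 among its leading genes. Cluster 13, led by Rai14 and Sulf1, was instead the cluster of Col8a1, a network collagen known from vessel walls and the cornea, at 73.6 CPM (202 UMIs), while the other 4 clusters held 1.22 to 3.10 CPM. Cluster 13 also held 49.5 CPM of Col5a1 and 35.3 CPM of Col24a1, another fibril-forming collagen, above the other 4 clusters of the class for both genes. Col6a2 did not single out a cluster of this class, at 3.67 to 10.6 CPM.

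The CA2/CA3 and CA1 pyramidal neurons were compared over 1032 and 2381 nuclei. Of 14 members tested, 3 were at least 2-fold higher in CA2/CA3 and 2 were at least 2-fold lower, beside 5.2% and 4.48% of all 10839 genes tested. The median log2 ratio of these members was 0.33, and that of all genes was -0.02. Col12a1 was 21.6-fold higher in CA2/CA3 (13.2 to 37.6), with 10.4 to 45.3 CPM over 6 sets against 0.27 to 2.50 CPM in CA1, so that the sets did not overlap. Col15a1 was 21.4-fold higher (9.48 to 59.7), at 8.15 CPM against 0.381 CPM from 6 UMIs. Col6a1 was 6.06-fold higher (4.89 to 7.58), with 44, 150, 90, 53, 52 and 93 UMIs in CA2/CA3 nuclei of sets 1 to 6, although its CA1 value in set 6 (19.5 CPM) came close to its lowest CA2/CA3 values (20.4 and 20.5 CPM). The members lower in CA2/CA3 were Col22a1, a fibril-associated collagen of tissue junctions, by 6.29-fold (3.53 to 12.2), and Col6a4, by 2.47-fold (1.62 to 3.86), with 30 against 96 UMIs.

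The 3 CA2/CA3 clusters were unlike each other in these same genes. Cluster 3 (837 nuclei, led by Mndal and Nectin3) held 50.7 CPM of Col6a1 and 20.4 CPM of Col12a1. Cluster 29 (98 nuclei, with Ntsr2, Amigo2 and Ccdc3 among its leading genes) held 256 CPM of Col11a1 (228 to 287), but 3.38 CPM of Col6a1 and 0.845 CPM of Col12a1 from 1 UMI. Cluster 30, 96% of whose nuclei came from set 1, held 57.0 CPM of Col12a1, 1.88 CPM of Col6a1 and 8.77 CPM of Col11a1. How far the difference between clusters 3 and 30 belongs to the barcode set was not tested. Col6a4 in CA1 was likewise uneven, at 28.5 CPM in set 5 and at 0.266 to 8.57 CPM in the other 5 sets. With any 1 of sets 1 to 5 left out, 1 member and not 2 remained at least 2-fold lower in CA2/CA3.

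Dentate granule and CA1 neurons differed in more members downwards than upwards. Of 14 members tested, 2 were at least 2-fold higher in dentate granule neurons and 5 were at least 2-fold lower, beside 7.76% and 7.25% of all 11114 genes, and the median log2 ratio was -0.43 against 0.06 for all genes. Col11a1, which pairs with type V and XI chains in cartilage fibrils, was 20.5-fold lower in dentate granule neurons (16.3 to 26.2), with 80.5 to 149 CPM in CA1 over 6 sets and 0 to 9.14 CPM in dentate granule neurons. Col4a1 was 3.02-fold lower, Col4a2 2.57-fold lower, Col6a4 2.45-fold lower and Col6a1 2.03-fold lower. Col25a1 was 3.03-fold higher in dentate granule neurons (2.85 to 3.22), and Col13a1, a transmembrane collagen of the neuromuscular junction, was 2.49-fold higher (1.59 to 4.00) from 73 against 28 UMIs. With set 1, 2 or 3 left out, 1 member was at least 2-fold higher, and with set 5 left out, 3 were higher and 3 lower.

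Col4a1 and Col4a2 are the 2 chains of the common basement membrane collagen IV, and most of their UMIs here came from neurons. The 31 vascular nuclei gave 13 Col4a1 and 10 Col4a2 UMIs, but their CPM, given below, lay above that of CA2/CA3 for both genes. Col4a2 was at 177 CPM in CA2/CA3, 115 CPM in CA1, 44.7 CPM in dentate granule neurons and 3.94 CPM in oligodendrocytes. Col4a1 was at 74.7, 60, 19.9 and 0.829 CPM in the same 4 classes. A Col4a2 UMI was seen in 75.9% of CA2/CA3 nuclei and in 0.741% of oligodendrocytes. Slc17a7 fell from 299 to 26.7 CPM and from 80.5% to 4.72% of nuclei between the same 2 classes. Whether the Col4a2 UMIs in oligodendrocytes are background RNA was not tested. In CA2/CA3 the values of Col4a2 over sets 1 to 6 were 167, 148, 151, 175, 261 and 316 CPM, and in CA1 they were 106, 93.8, 92.3, 96.9, 167 and 183 CPM. Sets 5 and 6 were highest in both classes, and CA2/CA3 exceeded CA1 within every set.

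The ratio of Col4a2 to Col4a1 UMIs was 2.41 over all nuclei (2.32 to 2.51). It was 1.92 (1.77 to 2.07) in CA1, 2.37 (2.19 to 2.57) in CA2/CA3, 2.67 (2.43 to 2.92) in other excitatory neurons and 3.97 (3.03 to 5.27) in Adarb2 interneurons, so CA1 and Adarb2 differed beyond counting error. In the 31 vascular nuclei the ratio was 0.769 (0.302 to 1.90) from 10 and 13 UMIs. The genes lie head to head on chromosome 8 and their annotated first bases, 11312805 for Col4a2 and 11312826 for Col4a1, leave a shared stretch of 22 bases on opposite strands. Nuclei with a Col4a2 UMI more often had a Col4a1 UMI as well, in 55% against 27.7% of CA2/CA3 nuclei and in 38.6% against 21.3% of CA1 nuclei, with no adjustment for depth.

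**Figure D5:**
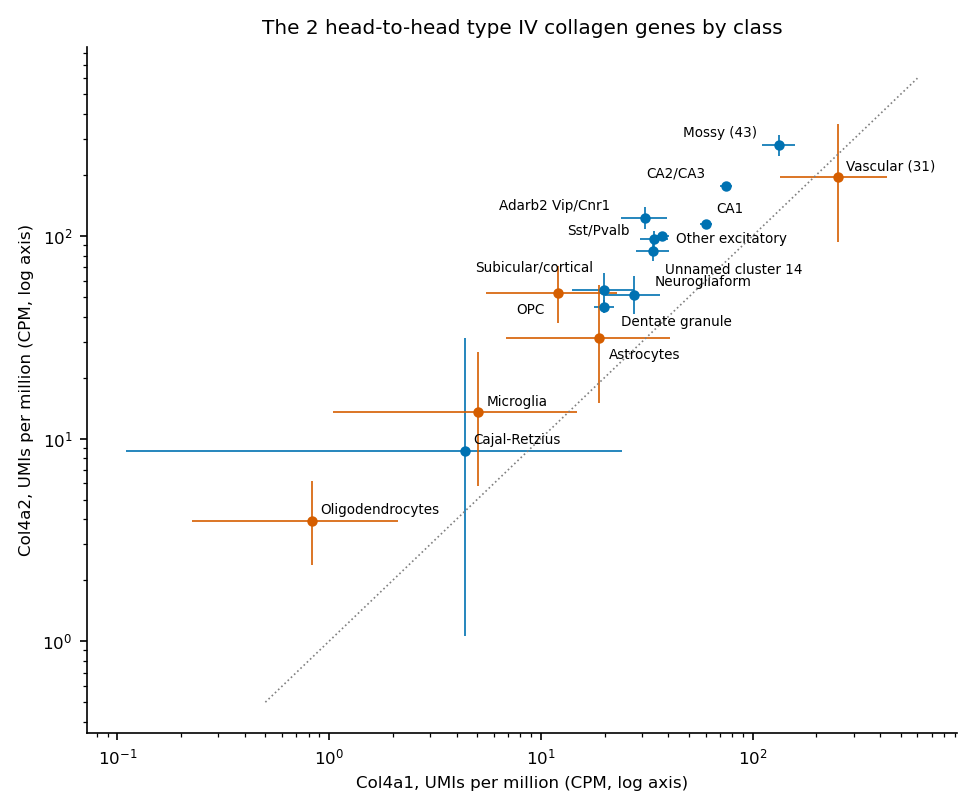
Col4a1 (horizontal) and Col4a2 (vertical) CPM in each class on log axes, with 95% counting intervals; blue marks neuronal classes, Cajal-Retzius cells and unnamed cluster 14, orange marks non-neuronal classes and the dotted line equal levels. CA2/CA3 and the 43 mossy nuclei lie high for both genes and oligodendrocytes low, and every class but the 31 vascular nuclei lies above the dotted line.

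The other type IV chains also form pairs in the genome. Col4a3 and Col4a4, chains of the kidney and ear basement membrane, lie head to head on chromosome 1, and the 71 bases between their annotated starts are shown as the stretch both genes start from (chr1:82586850-82586920, + strand, RefSeq window on GRCm38.p6). The stretch holds no capitals because none of the motifs searched on both strands was found in it: the letters CCAAT of the CCAAT box, the letters GGGCGG of the GC box, or the letters TATAAA of the TATA box.
Col4a4/Col4a3: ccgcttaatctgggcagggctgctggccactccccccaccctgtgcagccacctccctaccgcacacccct
Col4a3 had 241 UMIs and Col4a4 had 268, a ratio of 1.11 (0.931 to 1.33). The ratio was 0.136 (0.0261 to 0.454) in somatostatin or parvalbumin interneurons, with 22 UMIs of Col4a3 and 3 of Col4a4. It was 3.2 (1.12 to 11.2) in oligodendrocytes, with 5 and 16 UMIs, and the interval included 1 in CA1, CA2/CA3, dentate granule, other excitatory and Adarb2 nuclei. Col4a5 and Col4a6 are also head to head, with 1308 bases between their starts on the X chromosome, and had their highest levels in the vascular nuclei, at 876 CPM (45 UMIs) and 954 CPM (49 UMIs). In CA2/CA3 neurons Col4a6 gave 106 UMIs to 23 of Col4a5, whereas in astrocytes the counts were 5 and 17.

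Around their starts, the members were richer in GC than other genes. Of the 250 bases before each start in the RefSeq windows (GRCm38.p6), 38 windows belonged to 35 of the members, with a median GC content of 59.0% beside 52.4% for all 32851 windows. The letters GGGCGG or their reverse complement CCGCCC were found in 22 of the 38 windows (57.9%) and in 32.7% of all windows. CCAAT or ATTGG was found in 34.2% and 33.8%, and TATAAA or TTTATA in 13.2% and 12.4%. The windows of both Col4a1 and Col4a2 hold CCAAT or ATTGG.

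Neurons as a whole (9638 nuclei) were compared with non-neuronal nuclei (3406). Of 34 members tested, 14 passed the 2-fold limit upwards in neurons and 9 passed it downwards, beside 19.1% and 22.5% of all 13438 genes tested. The median log2 ratio of the members was 0.67, and that of all genes was -0.24. The neuronal side was led by Col19a1 (21.6-fold, 14.9 to 32.6), Col25a1 (13.0-fold, 10.8 to 15.7), Col6a1 (9.98-fold), Col6a4 (9.65-fold, from 216 against 2 UMIs), Col22a1 (8.84-fold), Col4a1 (8.33-fold) and Col4a2 (7.89-fold). Col6a2 (6.05-fold), Col26a1 (3.99-fold), Col5a1 (3.58-fold), Col8a1 (2.93-fold), Col5a2 (2.75-fold) and Col20a1 (2.50-fold) followed, and Col23a1 was 2.23-fold higher (1.88 to 2.67). Each had this direction in all 5 usable barcode sets, except Col6a4 and Col8a1 with 4 of 5 and Col5a1 with 3 of 5. Slc17a7 was at 26.7 CPM in oligodendrocytes and 43.7 CPM in astrocytes. The part of stray neuronal RNA in the non-neuronal collagen values was not tested.

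The 9 members lower in neurons were Col27a1 (34.8-fold, 27.4 to 44.8), Col9a3 (25.6-fold), Col9a1 (12.4-fold), Col5a3 (8.58-fold), Col11a2 (7.15-fold), Col4a5 (4.65-fold), Col15a1 (4.24-fold), Col16a1 (4.11-fold) and Col18a1 (2.19-fold). Each had this direction in all 5 barcode sets with at least 50 nuclei on both sides, except Col15a1 with 4 of 5. The 31 vascular nuclei held part of the non-neuronal UMIs, 45 for Col4a5 and 32 for Col12a1. Without the mossy and vascular nuclei Col4a5 was 2.10-fold lower in neurons (1.43 to 3.01), and Col12a1 (9.26-fold, 3.94 to 28.6) and Col13a1 (4.73-fold, 1.82 to 17.5) passed the limit as higher. Among members already higher, Col6a1 then stood at 15.7-fold, Col4a1 at 12.8-fold, Col6a2 at 11.9-fold and Col8a1 at 8.79-fold, the last 2 against 2 and 3 non-neuronal UMIs. Col4a6 stood at 1.55-fold. This alternative was chosen after seeing the data. Without scaling to total UMIs, the deeper neurons had more Col18a1 UMIs per nucleus, and its log2 ratio turned to 0.85.

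Microglia were the class of Col27a1, a fibril-forming collagen known from cartilage. It stood at 287 CPM there (170 UMIs in 119 of 386 nuclei), with 226, 287, 234 and 370 CPM in sets 1 to 4, and was 116-fold (94.1 to 143) above all other named nuclei. The next classes of at least 50 nuclei were oligodendrocyte precursors at 68.1 CPM and astrocytes at 21.8 CPM, and CA1 neurons had 0.254 CPM. Col15a1 was the second microglial member at 89.5 CPM (53 UMIs), with 63.6, 44.9, 88.8 and 150 CPM in sets 1 to 4, and was 29.3-fold above all other named nuclei (21.4 to 39.6). Among microglia with a Col27a1 UMI 19.3% also had a Col15a1 UMI, and among those without it 8.99% had one. Col6a3, a collagen VI chain, had 23.6 CPM in microglia from 14 UMIs, and 69.4 CPM in cluster 14.

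Oligodendrocytes and their precursors shared the collagen IX genes, whose products coat cartilage fibrils. Col9a1 was at 23.4 CPM in oligodendrocytes and 20 CPM in precursors, and Col9a3 at 25.7 and 44.1 CPM, while CA1 neurons had 1.33 and 1.14 CPM. Col9a3 was not limited to these classes, at 28.1 CPM in astrocytes (9 UMIs), 17.4 CPM in Cajal-Retzius cells (4 UMIs) and 76.8 CPM in cluster 14. Within the oligodendrocyte clusters both were highest in cluster 32, a group of 65 nuclei, at 60.7 CPM of Col9a1 and 99.0 CPM of Col9a3. Col9a2, the remaining chain of that trimer, had 14.7 CPM in precursors and 2.28 CPM in oligodendrocytes, from 11 UMIs in each. Col9a3 overlaps Tcfl5 on the other strand in the annotation, and whether the counting kept strands apart is not given in the sources used here. Precursors also held 162 CPM of Col11a1, 80.1 CPM of Col11a2, 42.7 CPM of Col18a1, 37.4 CPM of Col5a3 and 34.7 CPM of Col16a1, a fibril-associated collagen. For Col11a1 the precursor values were 145, 95.7 and 78.1 CPM in sets 1, 5 and 7, the last 2 from 5 and 7 UMIs. The Cajal-Retzius cells, early-born neurons that secrete reelin, had the highest Col11a1 level of a class with at least 50 nuclei, at 253 CPM (192 to 327) from 58 UMIs.

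Astrocytes were the non-neuronal class with the fewest nuclei among those compared (130), and their values rest on few UMIs. Col4a5 reached 53.1 CPM (17 UMIs) and Col11a2 49.9 CPM (16 UMIs). Col1a1 and Col1a2, the chains of type I collagen in connective tissue, had 9 and 4 UMIs in astrocytes, 6 and 8 in the 31 vascular nuclei, and 0 and 0 in oligodendrocytes. The vascular markers were not absent from the astrocyte class. Of 11 endothelial markers 3 were detected, summing to 25.0 CPM, with Flt1, Cldn5 and Cdh5 at 0. Of 11 pericyte and smooth muscle markers 5 were detected, summing to 253 CPM, and of 11 fibroblast markers 5, summing to 253 CPM, with Lum, Slc6a13 and Bnc2 at 0. Their part in the astrocyte collagen values was not tested.

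The 31 vascular nuclei carried markers of several cell types, and their values describe that mixture. All 11 endothelial markers, 10 of 11 pericyte and smooth muscle markers and 9 of 11 fibroblast markers had a UMI there, and Acta2, Slc47a1 and Igf2 were at 0. After Col4a6 and Col4a5 came Col12a1 at 623 CPM (32 UMIs), Col4a1 at 253 CPM, Col4a2 at 195 CPM, Col26a1 at 175 CPM and Col13a1 at 156 CPM (8 UMIs). One UMI is worth 19.5 CPM in this class, so members with 3 UMIs or fewer there are not ordered. The 43 mossy cell nuclei were deeper, with a median of 19119 UMIs, and held 280 CPM of Col4a2, 133 CPM of Col4a1, 111 CPM of Col12a1 and 64.7 CPM of Col18a1.

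Each class of at least 50 nuclei was also set against all other named nuclei, for the 34 members with at least 100 UMIs among named nuclei. Of these, 32 were at least 2-fold higher in at least 1 class, beside 66.6% of all 13449 genes, and 11 of the 32 were raised in 1 class alone. Col20a1 and Col13a1 were raised in none. Col20a1, a fibril-associated collagen, lay between 4.36 and 17.2 CPM over the 13 classes. Col28a1, with 322 UMIs in all nuclei used, was highest among these classes in oligodendrocyte precursors, at 9.35 CPM from 7 UMIs. Neurogliaform interneurons followed at 5.96 CPM of Col28a1. Adarb2 interneurons had 6 raised members beside 5.58% of all genes, neurogliaform interneurons 7 beside 5.71%, and somatostatin or parvalbumin interneurons 6 beside 6.6%. CA2/CA3 neurons had 6 beside 2.83%, CA1 neurons 3 beside 2.19%, other excitatory neurons 5 beside 3.37%, and subicular or cortical neurons 6 beside 5.31%. Dentate granule neurons had 0 raised members beside 4.44% of all genes.

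Among the non-neuronal and rarer classes, astrocytes had 12 raised members beside 21.5% of all genes, precursors 11 beside 14.1%, oligodendrocytes 6 beside 17.7%, Cajal-Retzius cells 5 beside 18.7% and microglia 2 beside 26.3%. As shares of 34 members these were 35.3, 32.4, 17.6, 14.7 and 5.88%. In astrocytes, 5 of the 12 ratios had a counting interval that reached below 1, those of Col9a1, Col4a3, Col4a6, Col16a1 and Col7a1. The subicular or cortical class was raised for Col11a2 (29.1 CPM, 54 UMIs), Col5a1 (20.5 CPM), Col15a1 (18.3 CPM), Col16a1 (17.8 CPM), Col6a2 (11.3 CPM) and Col4a4 (6.46 CPM).

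The 11 members with fewer than 200 UMIs were Col5a3 (185 UMIs), Col9a2 (176), Col7a1 (146), Col17a1 (110), Col3a1 (90), Col10a1 (70), Col2a1 (68), Col6a6 (58), Col8a2 (56), Col1a1 (44) and Col1a2 (28). Col1a1, Col1a2, Col2a1 and Col3a1, the major fibre collagens of skin, bone and cartilage, were thus near the floor in a total of 97979236 UMIs. Col2a1 had 16 of its UMIs in oligodendrocytes, and Col3a1 had 21 in CA1 neurons, at 1.33 CPM. Col10a1, the collagen of growth plate cartilage, had 14 in other excitatory neurons, 12 in CA1 neurons and 5 in microglia, and it lies across Nt5dc1 on the other strand. Col6a6 had 10 in somatostatin or parvalbumin interneurons and 14 in unnamed cluster 5. Col8a2 had 15 in other excitatory neurons, and Col17a1, the collagen of skin hemidesmosomes, had 21 there.

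The enzymes that modify collagen chains in the endoplasmic reticulum and the carriers that export them were measured in the same nuclei. Of 18 genes tested, 5 were 2-fold or more above the non-neuronal level in neurons and 3 lower (27.8% and 16.7%), beside 19.1% and 22.5% of all genes, with a median log2 ratio of 0.13 beside -0.24 for all genes. P4ha3 (5.85-fold) and P4ha2 (2.88-fold), alpha subunits of the prolyl 4-hydroxylase that stabilises the helix, and P3h3 (3.75-fold), a prolyl 3-hydroxylase family member, were higher in neurons. Plod1, a lysyl hydroxylase, was lower in neurons (3.31 against 63.2 CPM), as were P3h4 (1.53 against 19.9 CPM) and P4hb (9.73 against 25.2 CPM). Between excitatory and inhibitory nuclei 2 of 18 were higher and 2 lower, beside 9.59% and 8.19% of all genes, with Colgalt2, a collagen galactosyltransferase, 3.07-fold and P4ha1 2.77-fold higher in excitatory nuclei. Crtap (1.56 against 5.63 CPM) and Plod1 (2.85 against 6.52 CPM) were the lower ones. P3h2, the prolyl 3-hydroxylase of type IV chains, reached its highest level in microglia, at 611 CPM.

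Procollagen processing and cross-linking genes were compared in the same way. Of 9 tested, 5 were at least 2-fold higher in excitatory nuclei and 1 was lower (55.6% and 11.1%), beside 9.59% and 8.19% of all genes, with a median log2 ratio of 1.84 against -0.06 for all genes. Adamts2, which cuts the amino end off fibrillar procollagens, was 18.2-fold higher (38.3 against 2.10 CPM), Tll2 was 5.60-fold higher from 119 against 3 UMIs, and Bmp1, which removes the carboxyl end, was 5.37-fold higher (24.3 against 4.53 CPM). Tll1, a relative of Bmp1, went the other way, with 11.2 CPM in excitatory and 143 CPM in inhibitory nuclei. It was highest in somatostatin or parvalbumin interneurons at 208 CPM. Loxl1 and Adamts14 were highest in CA2/CA3 neurons, at 8.07 and 11.4 CPM. Against non-neuronal nuclei 4 of 10 genes of this list were higher in neurons and 3 lower, beside 19.1% and 22.5% of all genes, with a median log2 ratio of -0.33. Tll1 (13.8-fold), Adamts3 (7.48-fold) and Adamts14 (4.16-fold) led the higher genes, and the lower ones were Loxl3 (0.711 against 7.96 CPM), Pcolce2 (26.5 against 94.7 CPM) and Bmp1 (21.9 against 51.0 CPM).

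Receptors for collagen had their highest levels in several different classes. Of 11 tested, 3 stood at least 2-fold higher in neurons and 3 lower (27.3% each), beside 19.1% and 22.5% of all genes, with a median log2 ratio of -0.44. Between excitatory and inhibitory nuclei 0 were higher and 2 lower, beside 9.59% and 8.19% of all genes, with a median of -0.07. Itga11 (3.88-fold), Itga10 (3.09-fold) and Itga2 (2.28-fold), alpha subunits of collagen-binding integrins, were higher in neurons. The lower genes were Lair1, an inhibitory immune receptor, at 937 CPM in microglia, Ddr1, a collagen-activated receptor kinase, at 332 CPM in oligodendrocytes, and Adgrg1, an adhesion receptor that binds type III collagen, at 87.4 CPM in astrocytes. Ddr2 and Adgrg6, an adhesion receptor for type IV collagen, were lower in excitatory than in inhibitory nuclei, at 3.31 against 18 CPM and 5.19 against 17.6 CPM. Ddr2 was highest in neurogliaform interneurons (44.1 CPM) and Adgrg6 in Adarb2 interneurons (52.6 CPM).

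Among the genes for collagen breakdown and its control, 5 of 10 were higher by 2-fold or more in neurons and 3 lower (50% and 30%), beside 19.1% and 22.5% of all genes, with a median log2 ratio of 1.20. The membrane-bound metalloproteases Mmp24 (6.32-fold) and Mmp17 (5.98-fold) and the inhibitor Timp1 (5.81-fold, from 130 against 2 UMIs) led. Mmp15 (1.30 against 9.03 CPM), Timp2 (14.9 against 63.8 CPM) and Ctsk (2.95 against 6.58 CPM) were lower. Between excitatory and inhibitory nuclei 1 of 9 was higher, Mmp17 at 3.41-fold, and 0 were lower, beside 9.59% and 8.19% of all genes, with a median of -0.09.

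The laminins, agrin and nidogens that join type IV collagen in basement membranes were measured too. Of 12 partners tested, 4 showed at least 2-fold more in neurons and 4 lower (33.3% each), beside 19.1% and 22.5% of all genes, with a median log2 ratio of -0.03. Lamb1 was 6.25-fold and Lama3 2.36-fold higher in neurons. Lama2, a laminin chain of brain vessels and glia, was at 14.7 CPM in neurons and 448 CPM in non-neuronal nuclei, and at 1018 CPM in astrocytes. Nid2 (0.957 against 5.20 CPM) and Lama1 (3.07 against 13.0 CPM) were also lower in neurons. Among classes of at least 50 nuclei, however, Lama1 was highest in somatostatin or parvalbumin interneurons, at 14.4 CPM. It was also a leading gene of the 31 vascular nuclei, whose part in the non-neuronal value was not tested. Between excitatory and inhibitory nuclei 2 of 11 were higher, among them Lamc3 at 2.21-fold, and 3 lower, beside 9.59% and 8.19% of all genes, with a median of -0.44. Lama1 (1.75 against 12.5 CPM), Lama3 (7.52 against 40.1 CPM) and Lama4 (5.93 against 20 CPM) made up the lower side.

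Genes outside the family that carry a collagen domain had their own classes. Of 11 tested, 3 reached 2-fold or more in neurons and 7 lower (27.3% and 63.6%), beside 19.1% and 22.5% of all genes, with a median log2 ratio of -1.29. The complement genes C1qa, C1qb and C1qc were at 1101, 971 and 988 CPM in microglia, and together with C1ql1 and Emid1 (256 and 375 CPM in oligodendrocyte precursors) they led the lower side. C1ql3, a synaptic organiser, was at 479 CPM and C1ql2 at 29.3 CPM in dentate granule neurons, and both were higher in excitatory than in inhibitory nuclei (10.9-fold and 8.47-fold). Those were the 2 of 9 genes higher there, and Gldn, at 2.35 against 5.96 CPM, was the 1 lower gene, beside 9.59% and 8.19% of all genes, with a median of -0.21.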

How the data were processed

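The authors deposited 1 matrix of UMI counts per gene and barcode, whole numbers with no scaling, per the file headers. Cell Ranger 4.0.0 and the builds mm10 and GRCm38 are named in the submitters' processing notes. The annotation release, intron use and strand setting were not given in the sources used here. Members, gene lists and comparisons were chosen with earlier results of these data known. Markers were fixed first, but the rule that turns them into names was built while looking at the clusters.

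Nuclei needed at least 500 UMIs, 300 genes and under 5% mitochondrial UMIs (15553 of 15661 barcodes). Scrublet in scanpy 1.11.5, run per barcode set, called 306 doublets (1.97%), which were removed. In sets 2, 5 and 7 it called 0.177, 0.495 and 0.300%, so it is not taken to have worked there, though these few calls were removed as well. The sets shared 21 barcode sequences. Clustering used 2091 features, 30 principal components, 15 neighbours and Leiden resolution 1 (leidenalg 0.10.2) without integration, and gave 35 clusters. Before clustering, 133 genes (the members and all related lists) were set aside. A name needed at least 3 high markers, and clusters with markers of several classes stayed unnamed.

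UMIs were summed per class, and CPM carries an exact Poisson interval and a ratio of sides an exact conditional interval, at 95%. A gene was called at a ratio of at least 2 with at least 100 UMIs over both sides. Members with at least 200 UMIs are described by class, members past the 2-fold limit are named for each comparison, and up to 3 genes per direction are named for each other list. The ratio calculation was tested on simulated counts. Neurons are the excitatory and interneuron classes, and Cajal-Retzius cells entered neither side. Sequences come from GENCODE M21 transcripts and annotation (all 44 members matched) and RefSeq windows (35 members matched). Tables were made in Python 3.11.15 with scipy 1.17.1. The values of 1 gene of the basement membrane list are not reported here.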

Additional observations from a re-analysis of the deposited data

How the results depend on the processing

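No paired analysis was possible because the labels give 1 group and no result comes from a test. Every alternative gave a value, and 1, which leaves out the classes of under 50 nuclei, was chosen after seeing the data. Of 735 recomputed ratios of named members over 49 pairs of gene and comparison, 731 kept their direction and 4 reversed. These pairs had already passed the 2-fold limit in these same data, and the settings share most of their nuclei. A kept direction was therefore likely beforehand and says little about stability. Of the 49 pairs, 23 left the counting interval of the main result without scaling, though most of these kept their direction. With thinning 15 left it, with doublets kept 11, and with unnamed clusters joined 11. Without scaling to total UMIs, the log2 ratio of Col18a1 in neurons over non-neuronal nuclei was 0.8521. When the 7 unnamed clusters joined the classes their markers matched best, those of Col23a1, Col15a1 and Col18a1 in excitatory over inhibitory nuclei were -0.0247, -1.879 and -0.4662, and 3 members were higher in excitatory nuclei instead of 7. Counts are given below as higher and lower. Neurons against non-neuronal nuclei gave 14 and 9, unscaled means 25 and 4, thinning to 1000 UMIs 9 and 1 of 11 tested, a 4-fold limit 8 higher, and a minimum of 20 UMIs 14 lower. Excitatory against inhibitory gave 7 and 9, thinning 2 and 3 of 9 tested, and the 4-fold limit 3 and 5. Dentate granule against CA1 gave 2 and 5, thinning 1 and 3 of 5 tested, the 4-fold limit 0 and 1, and the 20 UMI minimum 4 and 9. Resolution 2 and the median over barcode sets each gave 3 lower there, and leaving out 1 set gave 1 to 3 higher and 3 to 5 lower. CA2/CA3 against CA1 gave 3 and 2, unscaled means 9 and 1, and thinning 0 and 0 of 4 tested. Resolution 0.5 and the 20 UMI minimum each gave 6 higher there, resolution 2 gave 0 lower, the 4-fold limit 1 lower, and leaving out 1 set 1 to 2 lower. Members raised in at least 1 class numbered 32, 10 of 11 tested after thinning, and 21 at 4-fold. Thinning leaves fewer members with 100 UMIs, and leaving out a set can do so too. The 4-fold and 20 UMI limits change what is counted. For the other changes the cause was not tested. Of members with enough UMIs, 67.7 to 87.1% kept their highest class in sets 1 to 6 taken alone. Leaving out the mossy and vascular nuclei gave 16 and 9 in neurons against non-neuronal nuclei and 6 and 9 in excitatory against inhibitory. Non-neuronal nuclei held 1919 UMIs on average and neurons 7592, so glial values rest on fewer UMIs per nucleus.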
